A study of Mus musculus with 6 samples.

Results

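Mitosis and G2/M genes are 46 genes whose products take a cell from the end of DNA replication through division: cyclin-dependent kinase 1 and its activators, mitotic kinases, kinetochore proteins, spindle motors, cytokinesis factors and condensins. The members were a fixed list of symbols, found by mapping the Ensembl identifiers of the deposited table to gene names, and all 46 were found among its 54532 genes. RNA had been measured in cells sorted for eYFP from fetal livers at embryonic day 16 (E16) and embryonic day 18 (E18), with 3 libraries a day lettered A, B and C. All 6 libraries came from CD-1 mice of the genotype Sm22-Cre/ROSA26RYFP, whose livers were dissociated with collagenase IV and Dispase and sorted on a FACSAria II. Both days therefore share the strain, the Cre driver and the reporter, and differ by embryonic age. The sort takes any cell in which Cre had been expressed from the Sm22 promoter, or in a precursor of which it had, so the eYFP mark records past activity of that promoter. Whether replicates of a day are separate litters, pools or repeat preparations is not stated in the labels, so each p-value rests on a spread between libraries that may be technical.

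Entry into mitosis depends on Cdk1 bound to cyclin A or B, held inactive by phosphorylation until CDC25 phosphatases remove it. Aurora and Polo-like kinases then drive spindle assembly, condensins compact the chromosomes, and the spindle checkpoint delays anaphase until every kinetochore is attached. The anaphase-promoting complex, with its activator Cdc20 and its ubiquitin-conjugating enzyme Ube2c, ends mitosis by marking cyclin B and securin for destruction. Many of these genes are transcribed in G2 and M through 2 promoter elements, the cell cycle genes homology region (CHR), bound by the MuvB complex, and CCAAT boxes, bound by NF-Y. Fetal liver in late gestation is a site of blood formation, in which erythroid precursors divide many times.

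Promoter windows are given first for members from 5 of the roles: Cdc25b, the member that differed most between the days, Prc1, Top2a, Kif11 and Ube2c, whose E16 and E18 values did not overlap, and Ccnb2 and Cdk1, the partners at the centre of mitotic entry. Each runs 5′ to 3′ from 100 bases before to 30 bases after a RefSeq transcription start on GRCm38.p6. Capitals mark the CHR core TTTGAA, which reads TTCAAA when it lies on the opposite strand, and the box CCAAT, which then reads ATTGG. The windows lie at chr2:131186848-131186977, plus strand (Cdc25b), chr7:80294351-80294480, plus strand (Prc1), chr9:70421525-70421654, minus strand (Ccnb2), chr10:69352883-69353012, minus strand (Cdk1), chr11:99024160-99024289, minus strand (Top2a), chr19:37376282-37376411, plus strand (Kif11), and chr2:164769829-164769958, plus strand (Ube2c).
Cdc25b: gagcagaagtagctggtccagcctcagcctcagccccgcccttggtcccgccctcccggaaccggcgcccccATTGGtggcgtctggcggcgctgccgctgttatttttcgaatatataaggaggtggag
Prc1: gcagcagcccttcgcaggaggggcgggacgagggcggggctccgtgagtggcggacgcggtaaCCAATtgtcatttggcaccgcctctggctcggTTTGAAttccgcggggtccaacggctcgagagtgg
Ccnb2: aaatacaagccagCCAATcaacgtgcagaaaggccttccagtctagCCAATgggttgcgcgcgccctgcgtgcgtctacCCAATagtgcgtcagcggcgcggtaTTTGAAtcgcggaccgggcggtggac
Cdk1: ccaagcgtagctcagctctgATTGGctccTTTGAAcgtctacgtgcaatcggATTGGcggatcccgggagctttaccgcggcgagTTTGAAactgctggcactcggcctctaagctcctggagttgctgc
Top2a: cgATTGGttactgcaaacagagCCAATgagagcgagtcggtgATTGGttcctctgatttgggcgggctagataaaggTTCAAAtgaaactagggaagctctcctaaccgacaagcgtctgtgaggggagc
Kif11: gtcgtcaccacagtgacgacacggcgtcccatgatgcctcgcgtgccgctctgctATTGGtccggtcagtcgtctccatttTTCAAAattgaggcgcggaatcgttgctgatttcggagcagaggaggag
Ube2c: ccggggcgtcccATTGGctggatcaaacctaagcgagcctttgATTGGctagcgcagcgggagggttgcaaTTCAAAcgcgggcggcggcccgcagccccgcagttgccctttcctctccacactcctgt
The Cdk1 window holds 2 TTTGAA matches, at −71 and −15 from the start, and 2 CCAAT matches. The Cdc25b window holds 1 CCAAT match and 0 TTTGAA matches. Each of the other 5 windows holds 1 TTTGAA match, between 29 bases before and 5 bases after the start, with 1 to 3 CCAAT matches.

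RefSeq promoters of 300 bases, from 250 before to 50 after a start, were at hand for 39 of the 46 members, with 42 starts in all. Aurkb, Ccna2, Cdc25c, Incenp, Kif20a, Smc4 and Tpx2 had no entry. TTTGAA was found on either strand in 73.8% of the member promoters, against 17.9% of all 32851 RefSeq promoters of the same length, 38.7% of 93 promoters of other mitosis genes and 10.3% of 39 promoters of DNA replication genes. Between 100 before and 50 after the start the shares were 66.7%, 8.01%, 30.1% and 7.69%. The 93 promoters belonged to 80 of the 93 other mitosis genes, and the 39 to 34 of the 43 replication genes. CCAAT was found in 73.8% of member promoters, 37.4% of all promoters, 57% of those of other mitosis genes and 61.5% of those of replication genes. At least 2 CCAAT matches were found in 47.6% of member promoters and 11.7% of all, and CCAAT with TTTGAA in 64.3% and 6.95%. The variant TTTAAA was found in 21.4% and 13.2%. Motifs were searched apart, and a TTTGAA match can share 1 base with a CCAAT match. Among members with a TTTGAA within that interval, 26 of 39, the median log2 fold change between days was 0.19, and among the 13 without it, 0.17. A match describes the letters of the window and is not a binding site by itself.

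**Figure D1:**
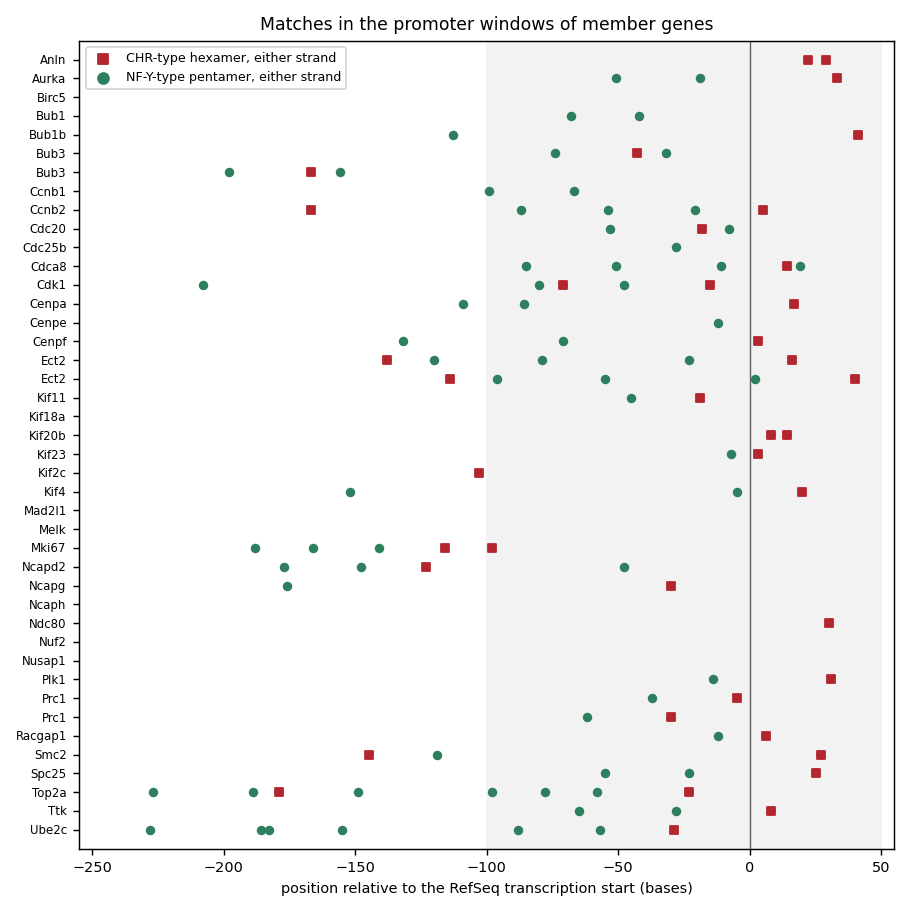
Positions of TTTGAA (red squares, CHR-type hexamer) and CCAAT (green circles, NF-Y-type pentamer) matches on either strand in 42 RefSeq promoters of 39 members, in bases from the transcription start, with a shaded band from 100 before to 50 after it. Red squares gather at the start and green circles before it, with median positions of −1 and −71, and 7 members (Birc5, Kif18a, Mad2l1, Melk, Ncaph, Nuf2 and Nusap1) have neither.

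The values are TPM, a relative transcript level corrected for length in which each library sums to the same total, so levels of different genes can be set side by side. Where 3 values are given for a day, they are those of replicates A, B and C in that order. All 46 members passed the filter on low values, 1 TPM or more in 3 or more libraries. Their median level, averaged over the 6 libraries, was 61.0 TPM against 9.99 TPM over the 17824 tested genes, and 14 members lay above 100 TPM and 5 below 30 TPM. The highest were Mki67, Ncapd2 and Incenp, and the lowest Ndc80, Kif18a and Cenpf. Reads recovered from the TPM steps numbered 21130195 to 22626883 in the E16 libraries and 14587543 to 18281942 in the E18 libraries, and each member rested on at least 427 reads in every library. The 3 E16 libraries were all deeper than the 3 E18 libraries, and the part of depth in the results was not tested. The labels call the sorted cells mesenchyme, yet erythroid markers summed to more TPM than mesenchyme markers in every library. E16 replicate B stood apart from its day in hepatocyte markers (9293 TPM, against 2794 and 2238 TPM in replicates A and C), and E18 replicate B in mesenchyme markers (5576 TPM, against 2595 and 2117 TPM).

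E18 was compared with E16 by limma on log2(TPM + 1), and a gene was called at an adjusted p under 0.05. Of the 46 members 1 was called higher at E18, against 3.08% of all tested genes called higher, and 0 were called lower, against 0.387%. The called member was Cdc25b. At an unadjusted p under 0.05 there were 12 members, and 3720 of the 17824 genes. Folds were positive in 38 of the 46 members and in 10151 of the 17824 tested genes. With median-of-ratios scaling they were positive in 30 members and in 8525 genes. The members' median log2 fold change was 0.17, with a range of −0.25 to 1.10, beside a median of 0.07 over all tested genes. Leaving out E16 replicate B gave a member median of 0.30, and leaving out E16 replicate A gave 0.11. With median-of-ratios scaling it was 0.06 beside −0.02 over all genes, and after rescaling without Gm26917, mitochondrial and small RNA genes it was 0.10 beside 0.01. The 95% interval of the fold change lay within 2-fold both ways for 43 of the 46. In 14 members all 3 E18 values lay above all 3 E16 values, against 18.4% of all tested genes, and in 0 members all lay below, against 8.05%. These are 30.4% of the members, a share that was 21.7% with median-of-ratios scaling (10 members higher and 3 lower), 26.1% after rescaling without Gm26917, mitochondrial and small RNA genes (12 and 2), and 37% with quantile normalization (17 and 1). In bulk libraries, fewer cells of a type and less RNA per cell cannot be told apart.

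The 12 members with an unadjusted p under 0.05 all had higher means at E18. Besides Cdc25b they were Prc1, Ncaph, Nusap1, Ube2c, Nuf2, Smc4, Top2a, Mki67, Racgap1, Birc5 and Tpx2, and limma adjusted p for these 11 ran from 0.105 to 0.235. With array weights, which gave E16 replicate C and E18 replicate A weights of 3.76 and 3.62 and the other libraries 0.484 to 0.605, limma called 16 members, all higher, against 15.7% of all tested genes called higher.

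**Figure D2:**
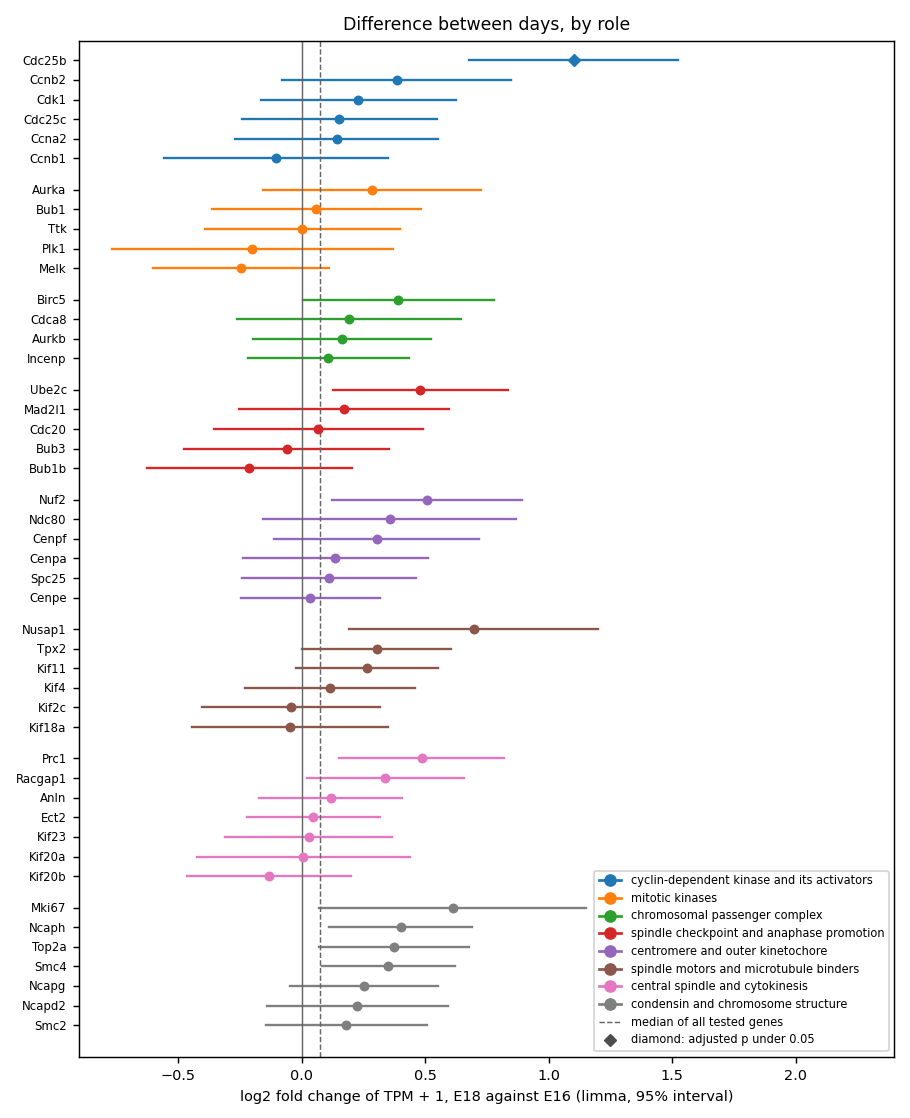
Log2 fold change of TPM + 1 from E16 to E18 (x axis, limma, with 95% intervals) for the 46 members, coloured by role, with a dashed line at the median of all tested genes, 0.07. Cdc25b, the diamond at 1.10, stands apart, and 34 of the 46 intervals include 0.

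Summed over the members, the level was 3853, 4606 and 3987 TPM at E16 and 5129, 4957 and 4878 TPM at E18, or 4149 ± 402 TPM (E16) and 4988 ± 129 TPM (E18) (mean ± SD, n = 3 each). Every E18 library lay above every E16 library, with a ratio of means of 1.20. On the log2 scale this ratio was 0.27, and 0.15 with median-of-ratios scaling. Mki67 was the largest single part of the sum. Without it the sums were 3218, 4131 and 3459 TPM at E16 and 4262, 3928 and 4239 TPM at E18, and E16 replicate B then lay above E18 replicate B. E16 replicate B was the highest of the 3 E16 libraries for 37 of the 46 members, replicate A for 9 and replicate C for 0. At E18 the highest value came from replicate C for 20 members, A for 16 and B for 10, and the lowest from B for 26, C for 17 and A for 3.

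**Figure D3:**
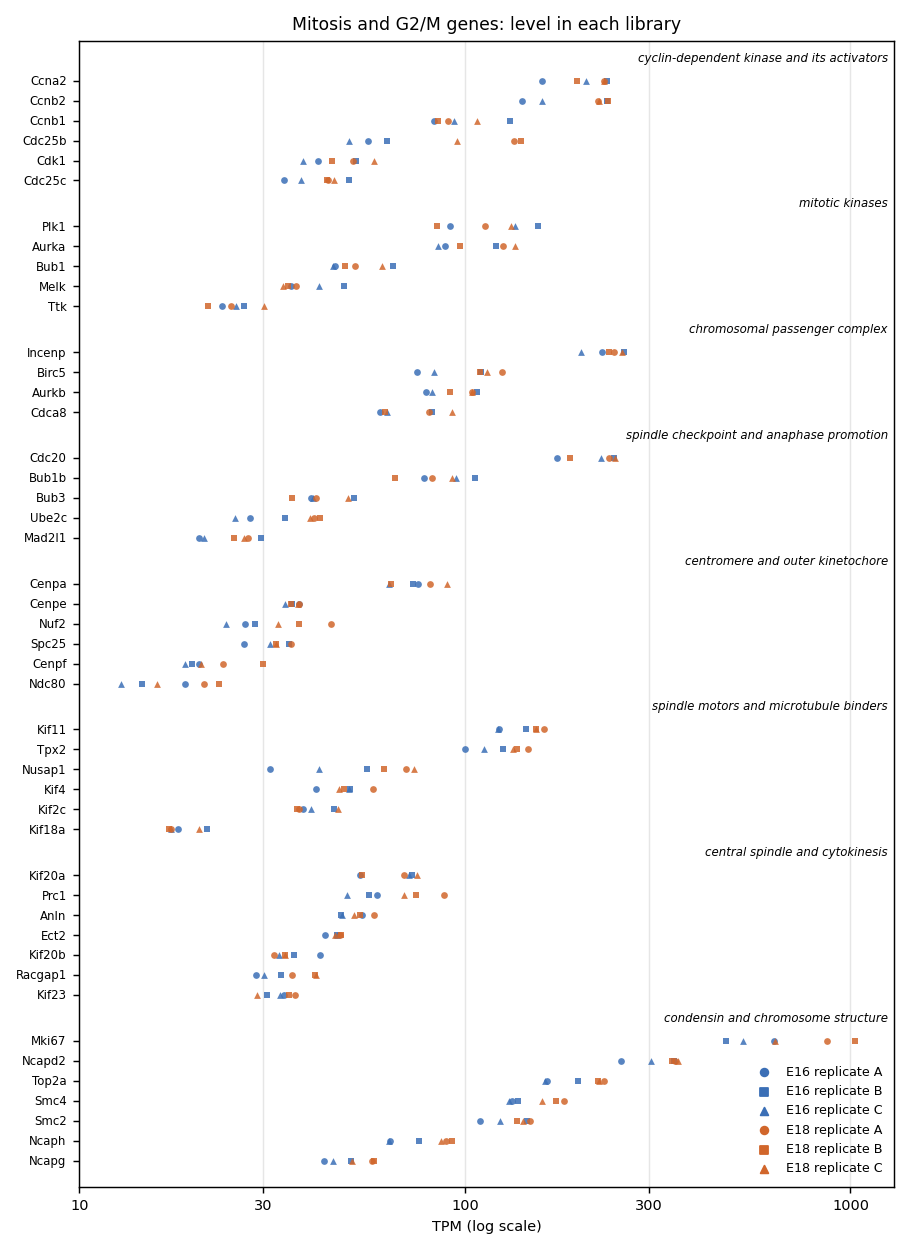
TPM of each of the 46 members in each of the 6 libraries on a log axis, grouped by role and ordered by mean level within it (blue, E16; orange, E18; circle, square and triangle for replicates A, B and C). Most rows mix blue and orange; the orange symbols stand to the right of all blue ones in 14 rows, among them Cdc25b, Prc1 and Smc4.

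The activators of mitotic entry held the called member. Cdc25b, the phosphatase that starts the activation of Cdk1 at the centrosome (chromosome 2, 131186949 to 131198497), stood at 56.0, 62.9 and 50.1 TPM at E16 and 134, 139.8 and 95.3 TPM at E18. All 3 E18 libraries lay above all 3 E16 libraries, and E18 replicate C was the lowest of its day. Its means were 56.3 ± 6.39 TPM (E16) and 123 ± 24.3 TPM (E18) (SD, n = 3 each), and it rose by 1.10 ± 0.18 on the log2 scale (SE; 95% interval 0.68 to 1.53; limma adjusted p = 0.0351). The call did not hold without any single E16 library, with limma adjusted p of 0.105, 0.0797 and 0.0952 without replicates A, B and C of that day. Nor did it hold at E18 without replicate A (0.115) or replicate B (0.101), and it did without replicate C. Over 18 other settings the log2 fold change ran from 0.99 to 1.31 and the adjusted p from 0.0024 to 0.115, and Cdc25b was called in 10 of them.

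Its relative Cdc25c, which acts in the loop that completes Cdk1 activation, was not called. Cdc25c was at 33.9, 50.2 and 37.6 TPM at E16 and 44.1, 43.8 and 45.7 TPM at E18, with overlapping groups and a log2 fold change of 0.15 ± 0.17 (95% interval −0.24 to 0.55). The ratio of Cdc25b to Cdc25c within a library does not depend on the library total. It was 1.65, 1.25 and 1.34 at E16 and 3.05, 3.19 and 2.09 at E18, and the groups did not overlap. Exons on the opposite strand overlap 12.7% of the Cdc25c exon length. A further family member, Cdc25a, which acts mainly in S phase entry and belongs to the wider list of mitosis genes, stood at 52.5, 54.4 and 53.1 TPM at E16 and 44.2, 39.0 and 49.7 TPM at E18, with all E18 values below all E16 values but not called (log2 fold change −0.27; limma adjusted p = 0.313).

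Cdk1, the kinase that drives mitosis, was at 41.7, 52.1 and 38.0 TPM at E16 and 51.2, 45.1 and 58.3 TPM at E18. The groups overlapped, and the log2 fold change was 0.23 ± 0.17 (limma adjusted p = 0.508). Ccnb2, a B-type cyclin at the Golgi, was at 141, 234 and 158 TPM at E16 and 222, 235 and 223 TPM at E18. E16 replicate B reached the E18 level and the other two E16 libraries lay well below it. Ccnb1, the B-type cyclin essential for mitotic entry, was at 83.4, 131 and 93.9 TPM at E16 and 90.5, 85.2 and 107 TPM at E18, and its highest value was again in E16 replicate B. The fold changes were 0.38 ± 0.20 for Ccnb2 (95% interval −0.08 to 0.85) and −0.10 ± 0.19 for Ccnb1 (−0.56 to 0.35), and neither was called. The ratio of Ccnb2 to Ccnb1 within a library was 1.69, 1.78 and 1.69 at E16 and 2.45, 2.76 and 2.08 at E18, without overlap between the days. Other pairs of members were set in ratio in the same way. The days overlapped for Aurka to Aurkb, Smc4 to Smc2, Nuf2 to Ndc80, Prc1 to Plk1 and Top2a to Plk1, but not for Bub1b to Bub1. How often ratios of other gene pairs separate the days was not measured. Ccna2, the A-type cyclin of S and G2, was at 158, 234 and 206 TPM at E16 and 229.7, 195 and 229 TPM at E18, with overlapping groups. Of the 6 genes of this role 5 had positive folds, the median was 0.19, and the summed level was 621 ± 129 TPM (E16) and 758 ± 13.7 TPM (E18).

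**Figure D4:**
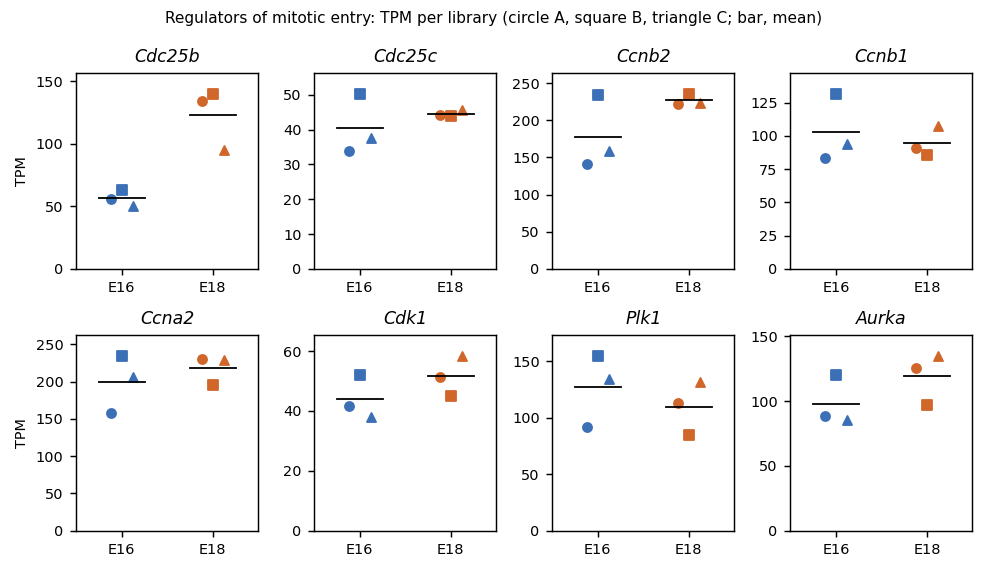
TPM of 8 regulators of mitotic entry in each library (y axis from 0; circles, squares and triangles, replicates A, B and C; bars, means of 3). Cdc25b separates the days, while Cdc25c, Ccnb2, Ccnb1, Ccna2, Cdk1, Plk1 and Aurka each have an E16 value, mostly that of replicate B, within or above the E18 values.

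Among the mitotic kinases 0 of 5 were called, 3 folds were positive and the median was 0.00, below that of all tested genes. With median-of-ratios scaling the folds of Ttk and Bub1 turned negative, leaving 1 of 5 positive and a median of −0.11. Plk1, the Polo-like kinase that acts from centrosome maturation to cytokinesis, was at 91.4, 155 and 135 TPM at E16 and 113, 84.5 and 132 TPM at E18. Both days spread widely and overlapped (log2 fold change −0.20 ± 0.24, 95% interval −0.77 to 0.37). Aurka, the spindle pole kinase, was at 88.6, 120.2 and 85.4 TPM at E16 and 126, 97.4 and 135 TPM at E18, with E16 replicate B among the E18 values. Melk, a kinase of dividing progenitors, had the smallest p of this role and the lowest fold of all members, at 35.5, 48.7 and 41.9 TPM at E16 and 36.5, 34.7 and 33.7 TPM at E18. E16 replicate A lay among the E18 values, and Melk was not called (log2 fold change −0.25 ± 0.15; limma adjusted p = 0.425). Bub1, a checkpoint kinase at kinetochores, was at 52.2 ± 11.2 TPM (E16) and 53.9 ± 6.21 TPM (E18), and Ttk, the kinase that starts checkpoint signalling, at 25.2 ± 1.61 TPM (E16) and 25.5 ± 4.36 TPM (E18) (SD, n = 3 each). The sum of the 5 kinases was 344 ± 65.9 TPM (E16) and 343 ± 52.6 TPM (E18), a ratio of 0.997.

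The chromosomal passenger complex corrects faulty kinetochore attachments and later moves to the central spindle. Its kinase Aurkb was at 79.5, 108 and 82.3 TPM at E16 and 104, 91.3 and 105 TPM at E18, and its scaffold Incenp at 226, 258 and 201 TPM at E16 and 244, 236 and 256 TPM at E18. In both, the highest E16 library was replicate B and lay above all 3 E18 libraries. Birc5 (survivin) was at 75.2, 109.8 and 83.0 TPM at E16 and 125, 109 and 114 TPM at E18, where E16 replicate B again overlapped with E18 (log2 fold change 0.39 ± 0.16; limma adjusted p = 0.234). Cdca8 (borealin) was at 68.4 ± 11.9 TPM (E16) and 78.5 ± 15.4 TPM (E18) (SD, n = 3 each). All 4 folds were positive (that of Incenp was −0.0044 with median-of-ratios scaling), 0 were called, and the 3 subunits other than Birc5 had folds of 0.11 to 0.19.

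In the spindle checkpoint and anaphase group 0 of 5 were called and 3 folds were positive, or 2 with median-of-ratios scaling, under which that of Cdc20 turned negative. Ube2c, the ubiquitin-conjugating enzyme of the anaphase-promoting complex, was at 27.8, 34.2 and 25.4 TPM at E16 and 40.6, 42.0 and 39.6 TPM at E18. The 3 E18 libraries lay close together and above all E16 libraries (log2 fold change 0.48 ± 0.15; limma adjusted p = 0.124). Exons on the opposite strand overlap 22.8% of its exon length. Cdc20, the activator that the checkpoint restrains, was at 174, 243 and 225 TPM at E16 and 237, 188 and 246 TPM at E18, and Bub1b (BubR1), a subunit of the checkpoint's inhibitor of Cdc20, at 78.2, 106 and 94.7 TPM at E16 and 82.2, 66.0 and 92.8 TPM at E18. Both had overlapping groups, with log2 fold changes of 0.07 ± 0.18 for Cdc20 and −0.21 ± 0.18 for Bub1b (95% interval −0.63 to 0.20). The other two checkpoint proteins, Mad2l1 and Bub3, were at 23.7 ± 5.15 TPM (E16) and 26.5 ± 1.18 TPM (E18) and at 44.0 ± 6.63 TPM (E16) and 42.2 ± 7.20 TPM (E18) respectively. The within-library ratio of Bub1b to Bub1 was 1.70, 1.63 and 2.09 at E16 and 1.58, 1.35 and 1.53 at E18, lower in every E18 library.

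Among 6 centromere and outer kinetochore genes all folds were positive, except that of Cenpe under 2 other scalings, and 0 were called. In 2 of the 6 all E18 values lay above all E16 values, beside 18.4% of all tested genes. Nuf2, a subunit of the NDC80 complex that holds microtubules, was at 26.9, 28.5 and 24.0 TPM at E16 and 45.1, 37.1 and 32.8 TPM at E18, higher in every E18 library (log2 fold change 0.51 ± 0.16; limma adjusted p = 0.131). Its partner Ndc80 was at 18.8, 14.6 and 12.8 TPM at E16 and 21.0, 23.1 and 15.9 TPM at E18, where E16 replicate A lay above E18 replicate C. Another subunit, Spc25, was at 31.0 ± 4.21 TPM (E16) and 33.4 ± 1.78 TPM (E18) (SD, n = 3 each). Cenpf, a large kinetochore protein, was at 20.4, 19.6 and 18.8 TPM at E16 and 23.6, 29.9 and 20.7 TPM at E18. Its lowest E18 value lay just above its highest E16 value. Cenpa, the histone H3 variant that marks centromeres, was at 75.7, 73.3 and 63.5 TPM at E16 and 81.4, 64.3 and 89.8 TPM at E18, and Cenpe, a kinetochore motor, at 37.0, 35.6 and 34.2 TPM at E16 and 37.2, 35.4 and 37.0 TPM at E18. Both overlapped, and Cenpe was the steadiest of the 6 between libraries.

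Spindle motors and microtubule binders had 0 of 6 called. In 3 of the 6 all E18 values lay above all E16 values, beside 18.4% of all tested genes. Kif11 (Eg5), the motor that pushes spindle poles apart, was at 122, 144 and 122 TPM at E16 and 161, 153 and 153 TPM at E18. Tpx2, which activates Aurka on the spindle, was at 100.3, 125 and 112 TPM at E16 and 146, 137 and 134 TPM at E18. Nusap1, a microtubule-bundling protein, was at 31.2, 55.8 and 41.9 TPM at E16 and 70.3, 61.7 and 73.7 TPM at E18. In these 3 genes every E18 library lay above every E16 library. Nusap1 ranged at E16 from 31.2 TPM in replicate A to 55.8 TPM in replicate B, and had a log2 fold change of 0.70 ± 0.21 (95% interval 0.19 to 1.20; limma adjusted p = 0.119). It was called after rescaling without Gm26917, mitochondrial and small RNA genes (log2 fold change 0.64; limma adjusted p = 0.0429). Folds for Kif11 and Tpx2 were 0.27 ± 0.12 and 0.30 ± 0.13. Kif18a, a motor that limits chromosome oscillation, was at 18.1, 21.4 and 17.3 TPM at E16 and 17.3, 17.1 and 20.5 TPM at E18, with overlapping groups. The depolymerase Kif2c and the chromokinesin Kif4 were at 41.3 ± 4.08 TPM (E16) and 40.2 ± 5.77 TPM (E18) and at 47.2 ± 5.22 TPM (E16) and 51.2 ± 5.83 TPM (E18) respectively (SD, n = 3 each).

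Genes of the central spindle and cytokinesis had 0 of 7 called. In 2 of the 7 all E18 values lay above all E16 values, beside 18.4% of all tested genes. Folds were positive in 6, but in 3 with median-of-ratios scaling, where those of Kif23, Kif20a and Ect2 turned negative. Prc1, which bundles antiparallel microtubules at the central spindle (chromosome 7, 80294450 to 80316259), was at 59.1, 56.3 and 49.4 TPM at E16 and 88.3, 74.8 and 69.5 TPM at E18. All E18 libraries lay above all E16 libraries, and the log2 fold change was 0.49 ± 0.14 (95% interval 0.15 to 0.82; limma adjusted p = 0.105). Racgap1, a subunit of centralspindlin, was at 28.8, 33.4 and 30.1 TPM at E16 and 35.6, 41.0 and 41.0 TPM at E18, also without overlap. Kif23, the motor of the same complex, was at 32.6 ± 1.68 TPM (E16) and 33.4 ± 3.96 TPM (E18), with a fold of 0.03. Anln, the scaffold of the contractile ring, was at 54.3, 47.8 and 48.1 TPM at E16 and 58.1, 53.4 and 51.6 TPM at E18, with E16 replicate A above the E18 values of replicates B and C. Ect2, the exchange factor that activates RhoA, was at 45.6 ± 1.90 TPM (E16) and 47.1 ± 0.796 TPM (E18). Kif20a and Kif20b, kinesins of the central spindle, were at 66.1 ± 10.9 TPM (E16) and 66.4 ± 10.9 TPM (E18) and at 37.0 ± 4.67 TPM (E16) and 33.5 ± 1.21 TPM (E18) respectively, and opposite-strand exons overlap 29.3% of Kif20a. The group's median fold was 0.05, and −0.063 with that scaling.

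Condensin and chromosome structure genes had the highest median fold of the 8 roles, 0.35, with 7 of 7 folds positive and 0 called. With median-of-ratios scaling the median was 0.24, with 7 of 7 positive. In 5 of the 7 all E18 values lay above all E16 values, beside 18.4% of all tested genes. Mki67, the coat protein of mitotic chromosomes known as Ki-67 (chromosome 7, 135689784 to 135716361), was the most abundant member at 635, 476 and 528 TPM at E16 and 867, 1028 and 639 TPM at E18. The lowest E18 value, in replicate C, lay just above the highest E16 value, in replicate A (log2 fold change 0.61 ± 0.23; limma adjusted p = 0.187). Top2a, the topoisomerase that untangles sister chromatids, was at 164, 197 and 161 TPM at E16 and 229.6, 222 and 223 TPM at E18. The E18 values lay within a narrow band above all E16 values (log2 fold change 0.37 ± 0.13; limma adjusted p = 0.154).

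Condensin subunits ran in mean level from Ncapg, the lowest, to Ncapd2, the highest. Smc4, one of the paired ATPase arms, was at 132, 137 and 130 TPM at E16 and 181, 172 and 159 TPM at E18, without overlap (log2 fold change 0.35 ± 0.11; limma adjusted p = 0.135). Its partner Smc2 was at 126 ± 17.9 TPM (E16) and 142 ± 5.62 TPM (E18) (SD, n = 3 each), with overlap. Ncaph, the kleisin of condensin I, was at 64.0, 75.9 and 63.4 TPM at E16 and 89.4, 92.8 and 86.7 TPM at E18, without overlap (log2 fold change 0.40 ± 0.12; limma adjusted p = 0.118). Ncapd2, a non-SMC subunit of condensin I, was at 254, 349 and 304 TPM at E16 and 351, 345 and 356 TPM at E18, and E16 replicate B lay among the E18 libraries. Its fellow subunit Ncapg was at 46.4 ± 3.92 TPM (E16) and 55.5 ± 3.83 TPM (E18) (SD, n = 3 each). Summed without Mki67 and divided by the checkpoint and anaphase group, this group gave within-library ratios of 2.25, 2.06 and 2.04 at E16 and 2.47, 2.88 and 2.24 at E18. E18 replicate C lay just below E16 replicate A.

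Other genes of mitosis, 93 in 5 lists, had 0 called by limma and 5 at an unadjusted p under 0.05, with 67 positive folds, a median of 0.13 (0.02 with median-of-ratios scaling and 0.08 without E16 replicate A), and 19 higher and 2 lower without overlap. These are 20.4% and 2.15% of the 93, beside 18.4% and 8.05% of all tested genes. With array weights 18 were called, all higher, 19.4% of the 93 beside 15.7% of all tested genes. With median-of-ratios scaling 50 folds were positive. Of the 17824 tested genes 10151 had positive folds, and 8525 with that scaling. The list of other spindle and cytokinesis genes had 19 of 20 positive folds, 9 without overlap and a median of 0.21. Medians were 0.14 for 14 cohesin and separase genes, 0.10 for 30 further kinetochore and checkpoint genes, 0.05 for 16 subunits and regulators of the anaphase-promoting complex and 0.02 for 13 further kinases and entry genes. The highest folds were those of Cep55, an abscission factor (0.74; 1.79, 0.813 and 1.11 TPM at E16 and 2.04, 3.23 and 2.87 TPM at E18), the centromere loading factor Oip5 (0.49) and the cohesin acetyltransferase Esco2 (0.45). The lowest were those of Arpp19, an inhibitor of PP2A in mitosis (−0.32; 26.7, 38.6 and 27.0 TPM at E16 and 23.3, 23.3 and 26.0 TPM at E18), the Cdk subunit Cks2 (−0.29) and Anapc13 (−0.28).

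Regulators known to act on the CHR and on G2/M promoters gave 0 calls among 7. Foxm1, a transcription factor of G2/M genes, was at 37.7, 51.4 and 39.6 TPM at E16 and 48.1, 41.2 and 44.8 TPM at E18. Mybl2 (B-Myb), which joins the MuvB complex, was at 126, 127 and 149 TPM at E16 and 143, 123 and 130.2 TPM at E18. Both overlapped between the days, with log2 fold changes of 0.07 and −0.02. The MuvB subunits Lin9, Lin37, Lin52, Lin54 and Rbbp4 had folds of 0.12, −0.26, 0.30, 0.22 and 0.18. Lin54, the subunit that binds the CHR, was at 28.5, 29.4 and 30.1 TPM at E16 and 33.0, 32.4 and 37.8 TPM at E18, without overlap and not called (limma adjusted p = 0.408).

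Members were next set beside DNA replication genes of S phase and beside markers of the cell types present. Calls in each list stand beside 3.08% of all tested genes called higher and 0.387% called lower. The 43 replication genes had 0 called, 32 positive folds, a median of 0.07, and summed levels of 6149 ± 826 TPM (E16) and 6523 ± 263 TPM (E18) (mean ± SD, n = 3 each). The ratio of summed member TPM to summed replication TPM, which does not depend on the library total, was 0.735, 0.672 and 0.628 at E16 and 0.752, 0.783 and 0.760 at E18. Each E18 ratio lay above each E16 ratio, by little in E16 replicate A. Erythroid markers, 2 of 15 called higher, summed to 6990 to 8839 TPM at E16 and 12490 to 20740 TPM at E18, and the ratio of summed member TPM to that sum was 0.551, 0.521 and 0.507 at E16 and 0.247, 0.249 and 0.391 at E18. Of the gain in the erythroid sum 88.4% lay in the haemoglobin genes Hba-a1, Hba-a2 and Hbb-bs and the membrane protein gene Slc4a1, chosen after their values were seen, so the lower ratio rests largely on these 4. The other 11 markers summed to 3272, 3827 and 3375 TPM at E16 and 4982, 4847 and 4070 TPM at E18. Among them the erythroid transcription factors Klf1 and Gata1 had log2 fold changes of 0.13 and 0.17, and the erythropoietin receptor Epor −0.39, with all its E18 values below all its E16 values, and none was called. Mesenchyme markers, 10 of 12 called higher, summed to 383 to 757 TPM at E16 and 2117 to 5576 TPM at E18, highest in E18 replicate B. Tagln, the gene whose promoter drove Cre, was at 1.40, 0.606 and 1.17 TPM at E16 and 3.19, 2.86 and 3.37 TPM at E18. Opposite-strand exons overlap 67.9% of its exon length, so with the strand setting unknown its low level is uncertain. Hepatocyte markers, 7 of 15 called lower, summed to 2238 to 9293 TPM at E16 and 389 to 1002 TPM at E18, highest in E16 replicate B, the library in which 37 of the 46 members were at their E16 maximum. The part of these cell types in the members' values was not tested.

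Markers of other lineages summed to lower levels. The sums were 43.0 to 58.0 TPM at E16 and 49.5 to 121 TPM at E18 for 11 leukocyte and macrophage markers, mostly Cd68, with Adgre1, C1qa and C1qb listed at 0 in all 6 libraries and Ptprc at most at 0.143 TPM. They were 22.4 to 61.4 TPM at E16 and 33.1 to 109.6 TPM at E18 for 6 megakaryocyte markers, with Gp1bb listed at 0, although 92.9% of its exon length lies under another gene of the same strand, which counting can leave out, and 27.6 to 41.0 TPM at E16 and 18.0 to 25.2 TPM at E18 for 7 endothelial markers. For 6 cholangiocyte markers they were 9.89 to 19.7 TPM at E16 and 21.1 to 37.4 TPM at E18, and for 6 mesothelial markers 27.4 to 70.3 TPM at E16 and 58.1 to 99.2 TPM at E18. Calls among tested markers were 2 of 4, 0 of 4, 0 of 1, 1 of 3 and 3 of 6 in that order, all higher at E18. Of all tested genes 3.08% were called higher. The 2 leukocyte and macrophage calls were Lyz2 and S100a9, at most at 8.53 and 7.81 TPM in any library, and Cd68 was not called. Positive folds numbered 4 of 4, 4 of 4, 0 of 1, 2 of 3 and 4 of 6. The negative ones, none called, were endothelial Egfl7 (−1.002), cholangiocyte Cdh1 (−2.155) and mesothelial Krt8 (−1.085) and Krt18 (−2.094). The cholangiocyte and mesothelial sums therefore mix opposite changes. The part of these lineages in the members' values was not tested.

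**Figure D5:**
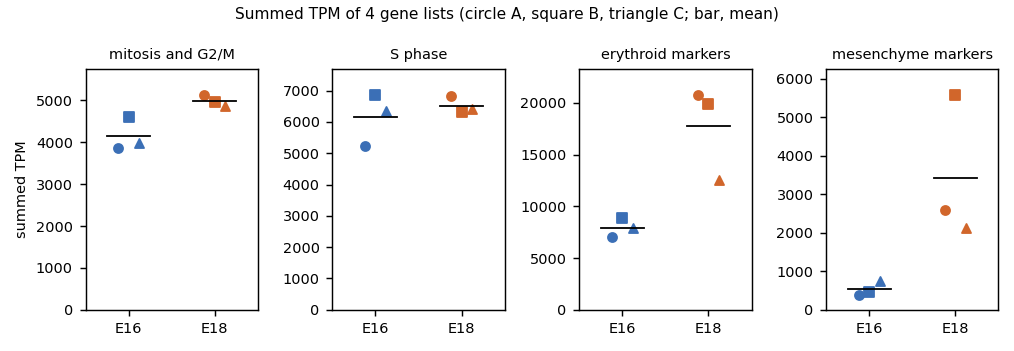
Summed TPM (y axes from 0) of the 46 mitosis and G2/M genes, 43 replication genes, 15 erythroid markers and 12 mesenchyme markers in each library (circle, square and triangle, replicates A, B and C; bar, mean of 3). Member sums lie between 3853 and 5129 TPM, a ratio of day means of 1.20, while the erythroid and mesenchyme sums have ratios of 2.24 and 6.43.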

How the data were processed

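RNA of eYFP-positive cells from fetal liver was measured in 3 libraries at E16 and 3 at E18, made with a stranded total RNA kit per the labels. The deposited table holds TPM for 54532 genes, made by the authors. Tools listed in the submitters' processing notes, with no roles, are HTSeq 0.5.4p3, Bowtie, HISAT2 2.1.0 and FastQC 0.11.7, and the build is mm10. How strand was counted, the annotation and the TPM formula were not given in the sources used here. Without a known strand setting, reads of a gene and of an overlapping gene on the opposite strand cannot be told apart.

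Symbols were matched to the Ensembl identifiers (54409 named, 123 not). Of all listed genes only Ahsp was unmatched. Gene positions are from GENCODE M21 on GRCm38, the assembly of mm10, counted from 1. Promoters are from RefSeq on GRCm38.p6. TPM multiplied by exon length gave whole reads, to within 0.05, for 96.8% to 97.1% of values above 0, from which read totals were recovered. One TPM in a gene of 1 kb is worth 4.41 to 6.83 reads.

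The 17824 genes at 1 TPM or more in 3 or more libraries were fitted together by limma (3.58.1; R 4.3.3). The fit was made to log2(TPM + 1) and used an intensity trend, 2-sided p and Benjamini-Hochberg adjustment over all of them. Folds of low genes are understated by the pseudocount. For 3 against 3 libraries, the smallest exact permutation p is 0.1. The fit was tested on simulated data.

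The members, lists, within-library ratios and tests were chosen with earlier results of these data known. Named genes were 22 fixed members, the member of each role with the smallest p, the 3 highest and 3 lowest members by fold and by level, the 3 highest and 3 lowest folds of the other mitosis list, and the transcription factors. Cdc25a and the remaining members were named after their values were seen. Figures were drawn with Matplotlib 3.10.9. Alternatives were pseudocounts of 0.1 and 5, other filters, 4 scalings, no intensity trend, array weights, voom on recovered reads, a replicate block and leaving out each library.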

Additional observations from a re-analysis of the deposited data

How the results depend on the processing

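Over all tested genes limma called 618, and 347 with a pseudocount of 5, 0 with no filter, 363 with a mean of at least 5 TPM, 399 with quantile normalization, 1069 after rescaling without Gm26917, mitochondrial and small RNA genes, 4316 with array weights, 1448 with voom on recovered reads and 0 to 664 with 1 library left out (55 without E16 replicate B, 664 without E18 replicate C, 0 without each of the others). The share of calls higher at E18 was 88.8%, 78.7% with quantile normalization, 76.5% without Gm26917, mitochondrial and small RNA genes and 64.8% with array weights. Members called numbered 1, and 0 with no filter or no intensity trend, 2 without Gm26917, mitochondrial and small RNA genes, 16 with array weights and 0 to 1 with 1 library left out. Other mitosis genes called numbered 0, and 18 with array weights. The causes were not tested. With the letter as a replicate block 0 genes and 0 members were called. The labels do not say whether a letter pairs the days, and the letters were not treated as pairs, since deviations of same-lettered libraries correlated at 0.102 (A), −0.139 (B) and −0.117 (C). Of the 46 members 33 kept their direction under every setting and 13 reversed under some, none of these called. With median-of-ratios scaling, which moved the median of all genes from 0.07 to −0.02, 30 folds were positive and the reversed ones were Kif23 (−0.081), Ttk (−0.11), Incenp (−0.0044), Cenpe (−0.074), Kif20a (−0.11), Cdc20 (−0.046), Bub1 (−0.051) and Ect2 (−0.063), and the log2 ratio of summed member TPM was 0.15 against 0.27. With quantile normalization (all genes −0.08) they were Kif23 (−0.0065) and Ttk (−0.066), and without Gm26917, mitochondrial and small RNA genes Ttk (−0.063), Kif20a (−0.061), Cenpe (−0.031), Cdc20 (−0.00086), Kif23 (−0.038), Ect2 (−0.020) and Bub1 (−0.0068). With array weights they were Kif20a (−0.018), Bub3 (0.0017) and Ttk (−0.025), and with voom Kif20a (−0.019), Kif23 (−0.0043) and Ttk (−0.017). With 1 library left out the folds ran from −0.016 to 0.27 for Ccna2, −0.24 to 0.085 for Ccnb1, −0.12 to 0.11 for Ttk, −0.029 to 0.23 for Bub1, −0.18 to 0.058 for Bub3, −0.076 to 0.19 for Cdc20, −0.15 to 0.034 for Kif2c, −0.13 to 0.041 for Kif18a, −0.14 to 0.14 for Kif20a and −0.033 to 0.13 for Kif23. With 3 libraries a day the 95% intervals of 34 members include 0, so for these members folds within the interval could not be told apart from 0.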

Other observations

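Genes of cell cycle exit, which are not members, had 3 of 11 called higher at E18, against 3.08% of all tested genes called higher, and a median log2 fold change of 0.58. Cdkn1c, the Cdk inhibitor p57, was at 14.2, 22.2 and 28.8 TPM at E16 and 55.8, 66.5 and 53.4 TPM at E18, in the order of replicates A, B and C (log2 fold change 1.44 ± 0.25; limma adjusted p = 0.0375). The retinoblastoma gene Rb1 was at 45.7, 60.3 and 48.9 TPM at E16 and 90.3, 86.4 and 77.6 TPM at E18 (0.71 ± 0.15; limma adjusted p = 0.0492). Btg2, an antiproliferative gene also induced by stress, was at 48.5, 92.8 and 75.8 TPM at E16 and 243, 317 and 149.5 TPM at E18 (1.68 ± 0.33; limma adjusted p = 0.0447). In these 3 genes every E18 library lay above every E16 library. Limma called 0 genes, and so none of these 3, without E16 replicate A or C and without E18 replicate A or B. Opposite-strand exons overlap 30.7% of the exon length of Cdkn1c, 14.9% of that of Rb1 and 0.0% of that of Btg2. With the strand setting unknown, the levels of Cdkn1c and Rb1 may hold reads of the overlapping genes. Cdkn1a and Cdkn1b, which encode p21 and p27, were at 1.48, 1.61 and 2.22 TPM at E16 and 3.32, 6.16 and 2.75 TPM at E18 and at 12.2, 17.0 and 14.6 TPM at E16 and 19.9, 19.1 and 16.8 TPM at E18 respectively and were not called. Summed TPM of the 11 genes was 337 ± 68.4 TPM (E16) and 611 ± 87.7 TPM (E18) (mean ± SD, n = 3 each). Btg2 held 60% of that difference, and without it the sums were 264 ± 46.3 and 374 ± 8.28 TPM. Rbl2 and Gadd45a had folds of −0.04 and −0.05. Mesenchyme markers summed to 533 ± 197 and 3429 ± 1874 TPM on the same days. Their sum was highest in E18 replicate B, where Btg2 and Cdkn1c were also highest, while Rb1 was highest in E18 replicate A. Among the E16 libraries that sum and Cdkn1c were highest in replicate C, and Btg2 and Rb1 in replicate B. Erythroid markers summed to 7895 ± 925 and 17700 ± 4537 TPM. The part of these cell types in the values was not tested.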
